A study of Rattus norvegicus with 19 samples.

Results

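Genes of glucocorticoid handling were followed through rat Leydig cell development. The 7 genes were the enzymes Hsd11b1 and Hsd11b2, the glucocorticoid receptor Nr3c1, and the receptor-induced genes Fkbp5, Tsc22d3, Sgk1 and Per1. The members were the probe sets whose single gene symbol in the platform annotation was one of these 7, which gave 9 of the 31042 probe sets tested (1 each for 5 genes, and 2 each for Nr3c1 and Fkbp5). No filter on low values was set, so all 9 were tested. RNA of 5 stem, 3 progenitor, 4 immature and 4 adult Leydig cell samples and of 3 bone stem cell samples, all from Sprague-Dawley rats with no treatment or engineered allele named, was read on 19 Affymetrix arrays. How old the rats were and how the cells were isolated or cultured is not stated in the sources used here. Since the labels do not tie replicates to different animals or cultures, each p-value reflects spread among arrays that may be technical.

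Glucocorticoids enter a cell as active corticosterone, the main form in the rat, or as inert 11-dehydrocorticosterone. Hsd11b1 encodes a reversible enzyme that interconverts these forms, with NADPH made in the endoplasmic reticulum by the enzyme that H6pd encodes, and Hsd11b2 encodes one that only inactivates corticosterone. Active hormone binds the receptor, which leaves its chaperones, enters the nucleus and raises or lowers the transcription of its targets. In Leydig cells, the testosterone-producing cells of the testis, excess glucocorticoid lowers steroid output, and the type 1 enzyme is known as a marker of their maturation.

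The start-site sequences of 3 targets that behaved differently below are shown as background. The receptor and cAMP, which luteinizing hormone raises in Leydig cells, can act through such regions. Whether these sequences bear on the differences was not tested. Each sequence is the 250 bases before a start site, taken from RefSeq on build GRCr8, 5′ to 3′ on the gene's strand. Capitals mark every match to a motif searched. The first is that of Fkbp5 (chr20:6543556-6543805, minus strand), the second is start site 3 of Tsc22d3 (chrX:109010035-109010284, minus strand) and the third is start site 3 of Sgk1 (chr1:24804832-24805081, minus strand).
Fkbp5: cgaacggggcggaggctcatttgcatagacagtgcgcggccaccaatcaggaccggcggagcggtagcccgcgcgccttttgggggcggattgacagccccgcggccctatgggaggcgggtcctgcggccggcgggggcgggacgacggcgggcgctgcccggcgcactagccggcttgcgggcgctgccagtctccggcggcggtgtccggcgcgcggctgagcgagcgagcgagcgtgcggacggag
Tsc22d3: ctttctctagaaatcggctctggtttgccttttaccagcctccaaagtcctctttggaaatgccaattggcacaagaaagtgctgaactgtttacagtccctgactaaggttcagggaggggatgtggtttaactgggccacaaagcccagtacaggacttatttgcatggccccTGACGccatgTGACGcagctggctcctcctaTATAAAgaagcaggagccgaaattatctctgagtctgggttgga
Sgk1: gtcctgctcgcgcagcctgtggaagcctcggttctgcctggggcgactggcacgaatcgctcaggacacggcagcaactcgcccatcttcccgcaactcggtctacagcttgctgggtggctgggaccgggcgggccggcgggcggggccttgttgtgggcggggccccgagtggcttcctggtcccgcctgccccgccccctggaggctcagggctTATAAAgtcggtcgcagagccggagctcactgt

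The motifs, searched on both strands, were the glucocorticoid receptor half-site AGAACA, a relaxed form of its whole palindromic element, the E-box CACGTG that clock proteins bind, the cAMP response element TGACGTCA, its half-site TGACG, which lies within it, and the TATA box TATAAA. Of 33469 rat promoters of the same length, these were held by 17.5%, 0.373%, 5.59%, 1.59%, 18.2% and 12.9% in that order. RefSeq start-site sequences were found for 5 of the 7 genes, with 10 start sites between them. Hsd11b1 and Hsd11b2 had none there, so their start sites were not searched. Tsc22d3 start site 3 held TGACG at 75 to 71 and at 65 to 61 bases before the start, and a TATA box at 44 to 39. Sgk1 start site 3 held a TATA box at 33 to 28 bases, and Sgk1 start site 1 one at 55 to 50. No other motif matched in the 10 windows, which says only that those letters are not in these 250 bases. Tsc22d3 and Sgk1 had more than 1 start site, and the Tsc22d3 window printed was the only one of that gene with a match. Which start site gave the RNA on the arrays was not tested.

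The deposited values are MAS5 signals, linear intensities that were already scaled to a trimmed mean of 100 on each array. The median probe set averaged 29.9, and 29.1% to 47.3% of those on an array lay under 16, the constant added before taking logs. Summed signals of 8 Leydig markers were 370.0 to 1600.3 on stem, 14366 to 22449 on progenitor, 12355 to 22836 on immature, 21318 to 32220 on adult and 83.4 to 614 on bone stem arrays. Cyp17a1 and Lhcgr, a steroid-making enzyme and the luteinizing hormone receptor, lay under 16 on every stem array. Summed signals of 18 leukocyte markers were 781 to 1276 on stem, 8599 to 10895 on progenitor, 4488 to 10703 on immature, 1742 to 4358 on adult and 15965 to 17766 on bone stem arrays. Smooth muscle sums were 2185 to 2345 on progenitor and 7695 to 16629 on stem arrays. In the test described below, 8 of 9 smooth muscle markers were called lower in progenitor cells (88.9%, against 45.3% of all named genes). Erythroid sums were 3462 to 5394 on progenitor and 10.6 to 55.4 on stem arrays, and 270.4 to 703 on adult and 2492 to 5362 on immature arrays. Endothelial sums were 699 to 3334 on adult, 385 to 1019 on immature and 1203 to 2270 on progenitor arrays. From immature to adult cells 8 of 11 endothelial markers were called higher and 0 lower (72.7%, against 29.3% of all named genes). Sertoli sums were 1445 to 2471 on adult and 929 to 1164 on immature arrays. In the same test, 2 of 7 Sertoli markers were called higher on adult arrays and 0 lower (28.6%, against 29.3% of all named genes). Their median log2 change was 0.02. Germ cell sums were 1556 to 3408 on adult, 696 to 1369 on immature, 415 to 581 on progenitor and 287 to 370.0 on stem arrays. From progenitor to immature cells 6 of 11 germ cell markers were called higher and 0 lower (54.5%, against 1.94% of all named genes). The part of other cells in the results below was not tested, and in such bulk RNA fewer cells of a type and less RNA per cell cannot be told apart. The 3′ to 5′ signal ratio of beta-actin, which rises with RNA degradation, was 6.35 on progenitor replicate 3 and at most 2.95 on the others. It was 1.03 to 1.84 on stem Leydig and 2.38 to 2.95 on bone stem arrays, without overlap, so it moved with each difference between those groups, and its part in them was not tested. Immature replicate 4 had the highest immature leukocyte sum. Results are given with and without these 2 arrays where they rest on them.

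**Figure D1:**
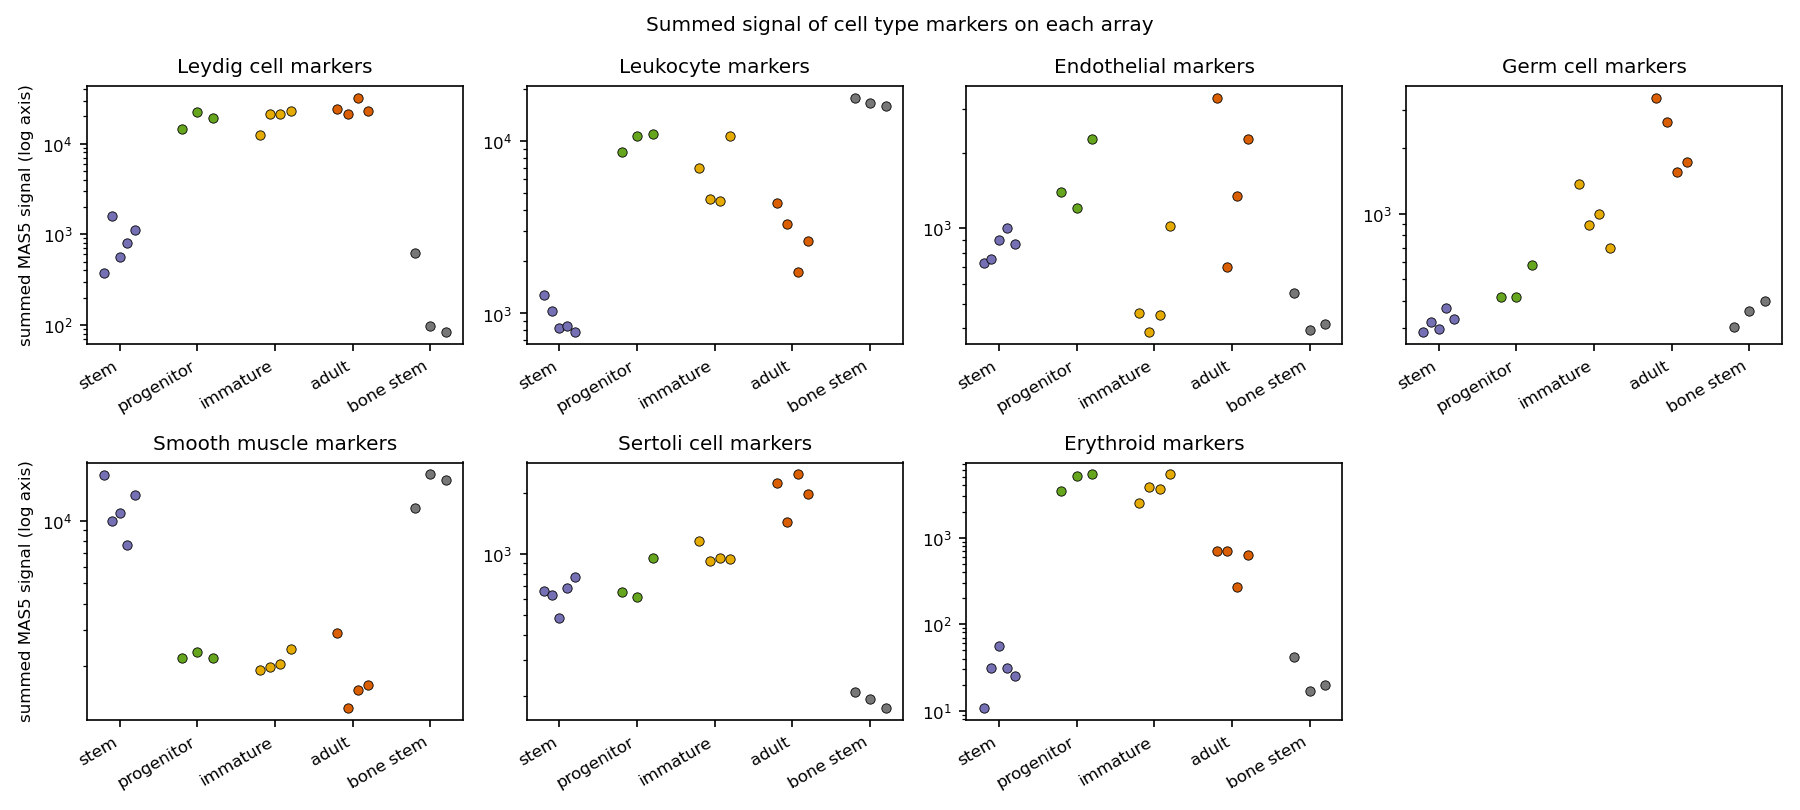
Summed MAS5 signal of 7 cell type marker lists (log axis), 1 point per array, with groups from stem Leydig through adult Leydig cells and then bone stem cells. The adult arrays reach 32220 for Leydig markers, and leukocyte sums are 15965 to 17766 on bone stem arrays and 8599 to 10895 on progenitor arrays.

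Differences were tested on log2(signal + 16) in a linear model of all 19 arrays (limma), with p adjusted over all 31042 probe sets and calls made under 0.05. Group mean signals are given ± SD, and log2 changes ± SE for the later stage over the earlier one, or for stem Leydig over bone stem cells, and understate the fold of dim genes. Of the 9 probe sets, 3 were called higher in progenitor than in stem Leydig cells (Hsd11b1, Hsd11b2, Sgk1), where 36.7% of all probe sets were called. Between immature and progenitor cells 3 were called, all higher in immature cells (Hsd11b1 and both of Fkbp5), against 1.3% of all. The 404 probe sets behind that share became 147 to 1304 when 1 array was left out, and 17, with 1 member among them, when only these groups were fitted. Between adult and immature cells 4 were called, all higher in adult cells (Hsd11b1, Hsd11b2 and both of Fkbp5), against 21.1% of all. Over the whole span, 5 were called higher in adult than in stem Leydig cells (the same 4 and Per1), against 41.8% of all. Between stem Leydig and bone stem cells 4 were called, of which Hsd11b1 was lower and Nr3c1, Per1 and 1 of Fkbp5 higher in stem Leydig cells, against 18.5% of all. The members were chosen with these results known, and the comparisons share groups, so their counts are not independent of each other.

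**Figure D2:**
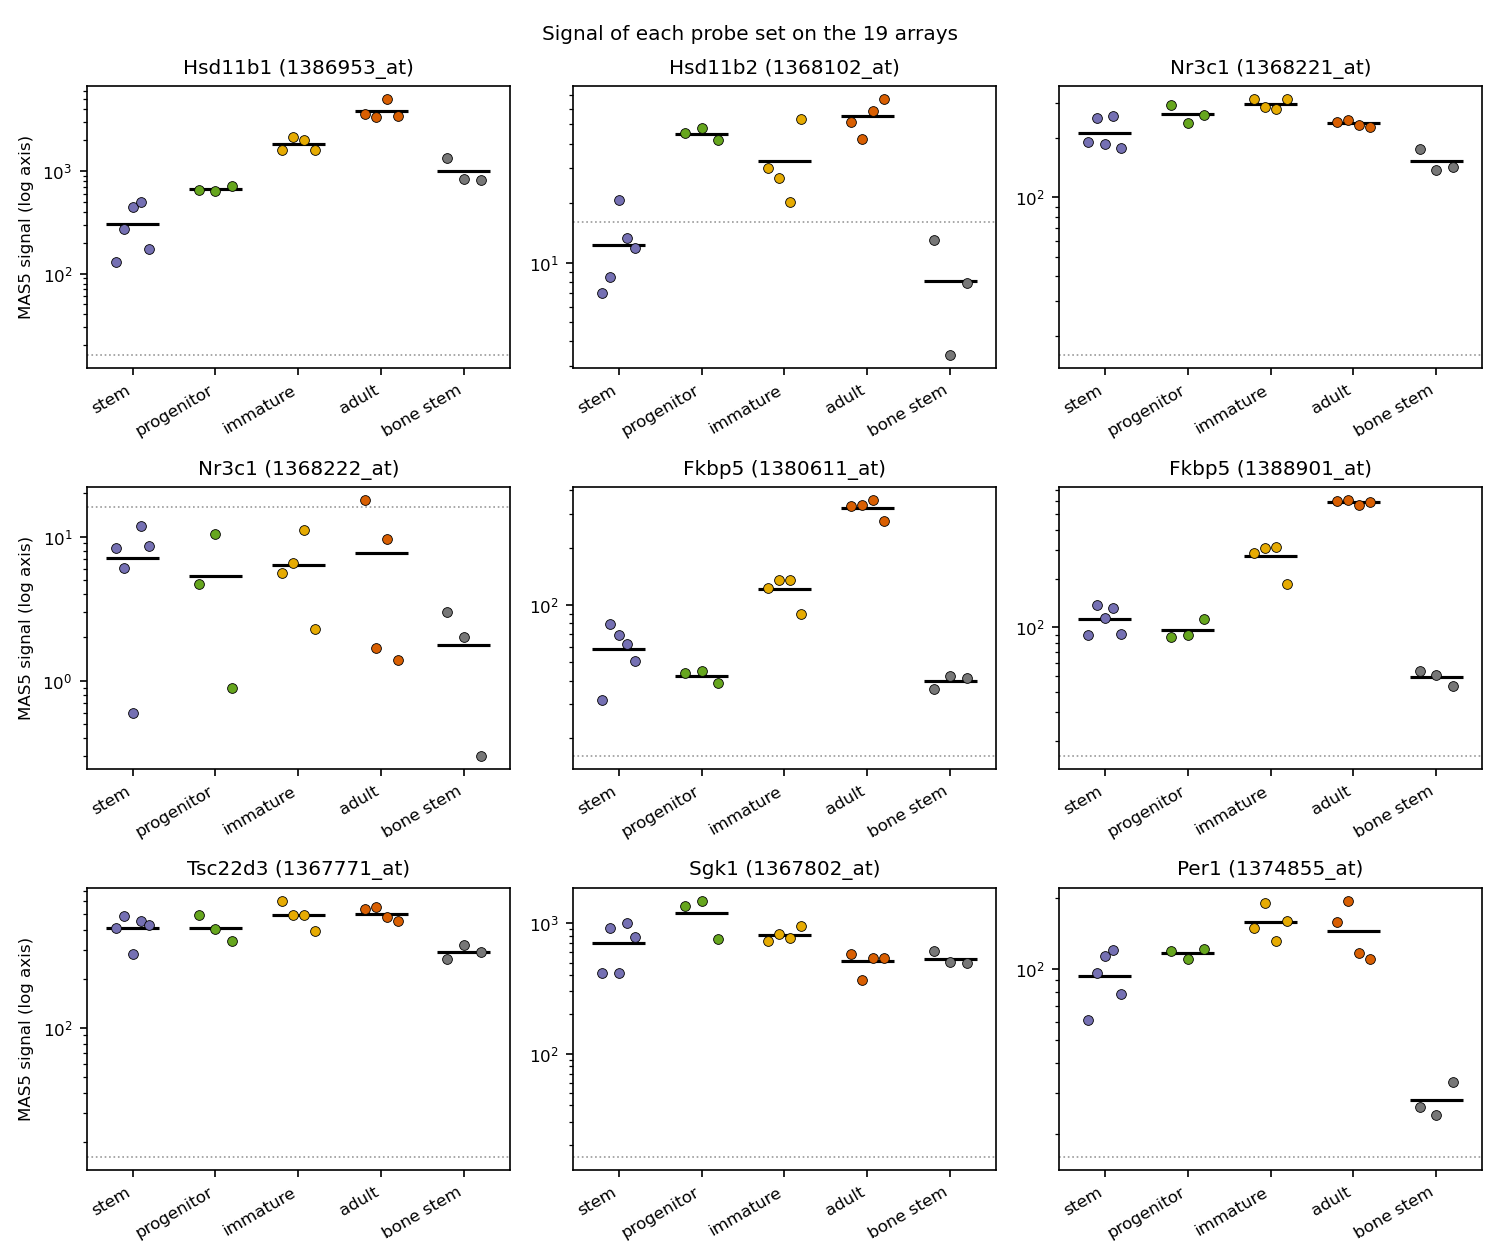
MAS5 signal (log axis) of the 9 probe sets on each of the 19 arrays, 1 point per array, with a line at each group mean and a dotted line at 16. Hsd11b1 steps upward through the 4 Leydig stages with no overlap between groups, Fkbp5 stays near its stem level in progenitor cells and then climbs, and Nr3c1 (1368222_at) lies under 16 on 18 arrays.

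Hsd11b1 climbed at each step of the lineage. Its signal (probe set 1386953_at) was 129, 269, 443, 496 and 174 on the stem arrays and 645, 634 and 703 on the progenitor arrays. It was 1596, 2150.2, 2008 and 1598 on the immature arrays and 3571, 3338, 5016 and 3408 on the adult arrays. No neighbouring stages overlapped, although the stem arrays were widely spread. Mean signals with their SD were 302 ± 162 for stem, 661 ± 37.2 for progenitor, 1838 ± 284 for immature and 3833 ± 795 for adult cells. The 3 bone stem arrays had 1332, 828 and 817 (992 ± 294), between progenitor and immature cells and overlapping neither.

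The adult level was 12.7-fold the stem level by mean signal (log2 change 3.74 ± 0.28, adjusted p = 5.58e-10). The change was 1.25 ± 0.30 from stem to progenitor cells (adjusted p = 0.00257), 1.44 ± 0.32 from progenitor to immature cells (adjusted p = 0.0258) and 1.05 ± 0.29 from immature to adult cells (adjusted p = 0.0139). Stem Leydig cells had less Hsd11b1 than bone stem cells (log2 change -1.79 ± 0.30, adjusted p = 0.000223). A change as large as the middle step was seen for 0.300% of all probe sets. That step missed the threshold when any 1 of the 3 progenitor arrays was left out (adjusted p = 0.0866, 0.109 and 0.0606 for replicates 1 to 3), and without immature replicate 2 (0.0872) or 3 (0.0763). Without progenitor replicate 3 and immature replicate 4 together it was 1.55 ± 0.40 (adjusted p = 0.0360). The last step missed it without adult replicate 3, the array at 5016 (adjusted p = 0.0548), and after quantile normalization (0.0646).

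Hsd11b2, the inactivating enzyme, was dim in every group. Its signals (1368102_at) ran from 41.6 to 47.8 in progenitor cells (mean 44.8 ± 3.09, SD), against 7.01 to 20.7 in stem cells (12.3 ± 5.35), without overlap. Immature cells had 20.3 to 53.3 (32.6 ± 14.4), adult cells 42.3 to 67.3 (54.8 ± 10.6) and bone stem cells 3.41 to 13.0 (8.11 ± 4.80). On 7 of the 19 arrays, all from the stem groups, it lay under 16, so the fold over them is uncertain. Its mean over all arrays was at percentile 50.1 of the probe sets. It was higher in progenitor than in stem cells (log2 change 1.12 ± 0.20, adjusted p = 0.000173) and in adult than in stem cells (1.33 ± 0.19, adjusted p = 5.46e-06). The change from progenitor to immature cells was -0.36 ± 0.21 (adjusted p = 0.556), and that of stem Leydig against bone stem cells 0.23 ± 0.20 (adjusted p = 0.538).

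The rise of Hsd11b2 from immature to adult cells was 0.57 ± 0.20 (adjusted p = 0.0443), with overlapping groups. It missed the threshold without adult replicate 1 (adjusted p = 0.0704), 3 (0.0998) or 4 (0.137), without immature replicate 1 (0.0739), 2 (0.103) or 3 (0.142), with 1 in place of 16 added to the signal (0.138), and with only these groups fitted (0.101). Without progenitor replicate 3 and immature replicate 4 it was 0.76 ± 0.19 (adjusted p = 0.00729).

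Other genes of corticosteroid synthesis, transport and clearance were mostly uncalled. Their called share was above that of all named genes only from immature to adult cells. Of 7 measured, 0 rose and 1 fell from stem to progenitor cells, 0 were called between progenitor and immature cells, 3 rose from immature to adult cells, and 2 rose from stem to adult cells, with 0 called between the stem groups. The called shares of this list in those comparisons were 14.3%, 0%, 42.9%, 28.6% and 0%. Among the 14217 named genes they were 45.3%, 1.94%, 29.3%, 53.7% and 23.9%. H6pd, which supplies the cofactor that lets the type 1 enzyme make active hormone, ran opposite to Hsd11b1 in the first step. It averaged 75.4 ± 20.1 in progenitor cells and 182 ± 18.7 in stem cells (log2 change -1.13 ± 0.16, adjusted p = 8.61e-06). It then averaged 234 ± 40.6 in adult cells and 129 ± 30.1 in immature cells (0.79 ± 0.15, adjusted p = 0.000791), while its adult level did not pass against the stem level (0.33 ± 0.15, adjusted p = 0.0824). Abcb1a, an efflux pump that carries corticosteroids, had 107 ± 65.8 in adult cells and 12.9 ± 9.61 in immature cells, or 8.46 there without replicate 4 (1.96 ± 0.41, adjusted p = 0.00147). Immature replicate 4 also had the highest immature endothelial sum (1019). Endothelial markers rose in the same step, and their part in this change was not tested. Serpina6, which encodes corticosteroid-binding globulin, was called as higher in adult than immature cells with means of only 5.12 in adult and 1.21 in immature cells (0.30 ± 0.07, adjusted p = 0.00336).

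Nr3c1, the receptor through which the hormone acts, stayed within a narrow range. On its brighter probe set (1368221_at) the stem arrays had 190.0, 250.2, 185, 258 and 178, and the progenitor arrays 291, 237 and 261. The immature arrays had 314, 284, 279.7 and 312, the adult arrays 239, 246, 232 and 226, and the bone stem arrays 176, 138 and 143. The immature arrays lay above every adult array, and the bone stem arrays below every stem Leydig array. Means were 212 ± 38.3, 263 ± 27.2, 297 ± 18.0 and 236 ± 8.61 from stem to adult Leydig cells and 152 ± 21.0 in bone stem cells.

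No step within the lineage was called for Nr3c1. The log2 change was 0.30 ± 0.13 from stem to progenitor (adjusted p = 0.0717), 0.17 ± 0.13 from progenitor to immature (adjusted p = 0.697) and -0.31 ± 0.12 from immature to adult cells (adjusted p = 0.0779). For adult against stem cells it was 0.16 ± 0.12 with a 95% interval of -0.09 to 0.40 (adjusted p = 0.310). The first step passed without stem replicate 2 (adjusted p = 0.0375) or 4 (0.0267), the arrays with the highest stem signals, and after quantile normalization (0.0323). The last step passed with only its groups fitted (adjusted p = 0.0442). Stem Leydig cells had more than bone stem cells (0.43 ± 0.13, adjusted p = 0.0206). That call was lost without stem replicate 2 (0.0591) or 4 (0.0569), without bone stem replicate 2 (0.125) or 3 (0.101), with each array centred on its median (0.156), and with only these groups fitted (0.0730). The other Nr3c1 probe set (1368222_at) ranged from 0.325 to 18.0 and was called in no comparison, although with array weights it passed as higher in stem Leydig than bone stem cells (adjusted p = 0.0367).

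Receptor chaperones and co-regulators were called at shares near or below those of all named genes. Of 16 measured, 4 rose and 2 fell from stem to progenitor cells (37.5%, against 45.3% of all), and 0 were called from progenitor to immature cells (against 1.94%). From immature to adult cells 3 rose and 2 fell (31.2%, against 29.3%), but 3 rose and 0 fell after median centring or without progenitor replicate 3 and immature replicate 4, and 1 rose and 2 fell after quantile normalization. Of the 2 falls in the main model, Crebbp, a co-activator, had another probe set called the opposite way (0.66, adjusted p = 0.0245). The fall of Crebbp was not called after quantile normalization (adjusted p = 0.0582) or median centring (0.228). From stem to adult cells 4 rose and 3 fell (43.8%, against 53.7%), and 3 were higher and 0 lower in stem Leydig than in bone stem cells (18.8%, against 23.9%). Fkbp4, the co-chaperone that helps carry the receptor to the nucleus, averaged 330 ± 17.1 in adult cells and 179 ± 19.5 in stem cells (0.83 ± 0.13, adjusted p = 1.94e-05). Ncoa1, a receptor co-activator, averaged 199 ± 14.2 in adult cells and 94.4 ± 9.20 in stem cells (0.96 ± 0.15, adjusted p = 2.44e-05). It was nevertheless the other of the 2 falls from immature to adult cells, a call lost after median centring (-0.35 ± 0.19, adjusted p = 0.205). Stip1, which links the heat shock proteins that load hormone, had 306 ± 11.7 in adult cells and 508 ± 75.9 in stem cells (-0.69 ± 0.14, adjusted p = 0.000448). Stub1, a ubiquitin ligase of chaperone clients, had 515 ± 58.3 in progenitor cells and 887 ± 79.6 in stem cells (-0.77 ± 0.13, adjusted p = 5.2e-05). Nr3c2, the mineralocorticoid receptor, which also binds corticosterone, was higher late. It had 81.4 ± 7.07 in adult cells and 35.4 ± 4.70 in immature cells (0.92 ± 0.15, adjusted p = 0.000161). It was also higher in stem Leydig cells at 51.9 ± 12.5 than in bone stem cells at 24.3 ± 1.99 (0.73 ± 0.16, adjusted p = 0.00219).

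Fkbp5 encodes a co-chaperone that lowers the receptor's affinity for hormone and is itself induced by the receptor. Both of its probe sets held level from stem to progenitor cells and then climbed. On the brighter (1388901_at) the stem arrays had 89.8, 137, 114, 132 and 90.4 and the progenitor arrays 86.7, 89.4 and 112. The immature arrays had 289, 309, 314 and 185, and the adult arrays 600.1, 612, 571 and 595. The groups overlapped only between progenitor and stem cells. The bone stem arrays had 53.5, 50.6 and 43.7, below every Leydig array. On the other probe set (1380611_at) the Leydig means ran 58.6 ± 18.3, 42.4 ± 3.08, 120 ± 21.4 and 325 ± 34.1 from stem to adult, and bone stem cells averaged 39.9 ± 3.41.

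The adult signal was 5.28-fold and 5.54-fold the stem signal on the brighter and dimmer probe set. The brighter set's log2 change was -0.19 ± 0.16 from stem to progenitor cells (adjusted p = 0.399), 1.35 ± 0.17 from progenitor to immature cells (adjusted p = 0.000294) and 1.10 ± 0.15 from immature to adult cells (adjusted p = 2.66e-05). The dimmer set gave -0.31 ± 0.18 (adjusted p = 0.189), 1.21 ± 0.19 (adjusted p = 0.00152) and 1.33 ± 0.17 (adjusted p = 1.2e-05) for the same steps. For adult against stem cells the changes were 2.26 ± 0.15 (adjusted p = 6.05e-11) and 2.22 ± 0.17 (adjusted p = 5.01e-10). Changes as large as those of the middle step were seen for 0.364% and 0.512% of all probe sets. For the last step the shares were 4.82% and 3.18%, and for adult against stem cells 4.67% and 4.83%.

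Against bone stem cells, stem Leydig cells had more Fkbp5 on the brighter probe set (0.96 ± 0.16, adjusted p = 0.000172), while the dimmer set gave 0.38 ± 0.18 (adjusted p = 0.168) and passed without stem replicate 1 (0.0183) or with array weights (0.0288). Immature replicate 4, at 185 the lowest immature array, carried the leukocyte sum of 10703. Without it and progenitor replicate 3 the brighter set's middle step was 1.62 ± 0.15 (adjusted p = 5.6e-06) and its last step 0.93 ± 0.13 (adjusted p = 4.13e-05). A fit of only the immature and progenitor arrays lost the middle step on both sets (adjusted p = 0.0677 and 0.0722). The dimmer set passed as lower in progenitor than stem cells without stem replicate 1 (adjusted p = 0.0199), after quantile normalization (0.0379) and after median centring (0.0323).

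Tsc22d3 encodes GILZ, a leucine zipper protein that carries many of the anti-inflammatory effects of glucocorticoids. Its signal (1367771_at) was broad and steady, from 287 to 489 on stem, 345 to 497 on progenitor, 396 to 606 on immature, 453 to 553 on adult and 267 to 322 on bone stem arrays. All 4 Leydig groups overlapped. No comparison was called, and for adult against stem cells the log2 change was 0.29 ± 0.15, with a 95% interval of -0.01 to 0.60 (adjusted p = 0.122). The closest to a call was stem Leydig against bone stem cells (0.46 ± 0.16, adjusted p = 0.0525), at means of 414 ± 76.7 in stem Leydig and 294 ± 27.6 in bone stem cells. It passed without stem replicate 3, the lowest stem array (adjusted p = 0.00547), after quantile normalization (0.0434), without the dimmest 40% of probe sets (0.0365), with array weights (0.000977) and without progenitor replicate 3 and immature replicate 4 (0.0284).

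Sgk1 encodes a kinase that regulates sodium transport and cell survival, and is induced by corticosteroids and by other signals such as serum. Its mean signal was highest in progenitor cells. The progenitor arrays had 1346, 1488 and 752, against 419, 918, 418, 1007 and 779 on the stem arrays. The immature arrays had 726, 824, 776 and 952, the adult arrays 584, 366, 545 and 545, and the bone stem arrays 612, 502 and 492. The progenitor arrays overlapped both the stem and the immature arrays, and every adult array lay below every immature array.

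Sgk1 was higher in progenitor than in stem cells (log2 change 0.78 ± 0.27, adjusted p = 0.0263), with means of 1195 ± 391 in progenitor and 708 ± 277 in stem cells. The call was lost without progenitor replicate 1 (adjusted p = 0.108) or 2 (0.149), without stem replicate 1 (0.0686) or 3 (0.0690), after median centring (0.126) and with only these groups fitted (0.0954). Progenitor replicate 3, with the highest actin ratio, was the lowest of its group, and without it and immature replicate 4 the change was 1.08 ± 0.28 (adjusted p = 0.00592). From progenitor to immature cells the change was -0.48 ± 0.28 (adjusted p = 0.546). From immature to adult cells it was -0.68 ± 0.26 (adjusted p = 0.0674), at means of 510.2 ± 97.8 in adult and 820 ± 97.1 in immature cells. That step passed after quantile normalization (adjusted p = 0.0414), with array weights (0.0478), without the dimmest 40% of probe sets (0.0459) and when only these groups were fitted (0.0120). For adult against stem cells it was -0.39 ± 0.24, with a 95% interval of -0.90 to 0.12 (adjusted p = 0.228), and passed with array weights (0.0241). For stem Leydig against bone stem cells it was 0.30 ± 0.27 (adjusted p = 0.525), and passed with array weights (0.0158). Of the Leydig stages, adult cells had the lowest mean of Sgk1 and the highest of Fkbp5.

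Per1 encodes a repressor of the circadian clock that glucocorticoids induce directly. Its signal (1374855_at) was 60.7, 96.1, 114, 121 and 78.4 on the stem arrays and 119, 111 and 121 on the progenitor arrays. It was 149, 190.3, 131 and 160 on the immature arrays, 158, 194, 117 and 110 on the adult arrays, and 26.0, 24.1 and 33.4 on the bone stem arrays. Every bone stem array lay below every Leydig array, and every immature array above every progenitor array. The 5 stem arrays fell in the same order for Per1 and Hsd11b1.

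Of the 5 comparisons tested, Per1 changed most between stem Leydig cells at 93.9 ± 24.8 and bone stem cells at 27.8 ± 4.94 (log2 change 1.30 ± 0.19, adjusted p = 3.64e-05). It was higher in adult cells at 145 ± 39.2 than in stem Leydig cells (0.55 ± 0.17, adjusted p = 0.0139), with overlapping groups, and lost that call without adult replicate 2 (adjusted p = 0.0737). No single step passed, with 0.30 ± 0.19 from stem to progenitor (adjusted p = 0.232), 0.38 ± 0.20 from progenitor to immature (adjusted p = 0.481) and -0.13 ± 0.18 from immature to adult cells (adjusted p = 0.698).

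**Figure D3:**
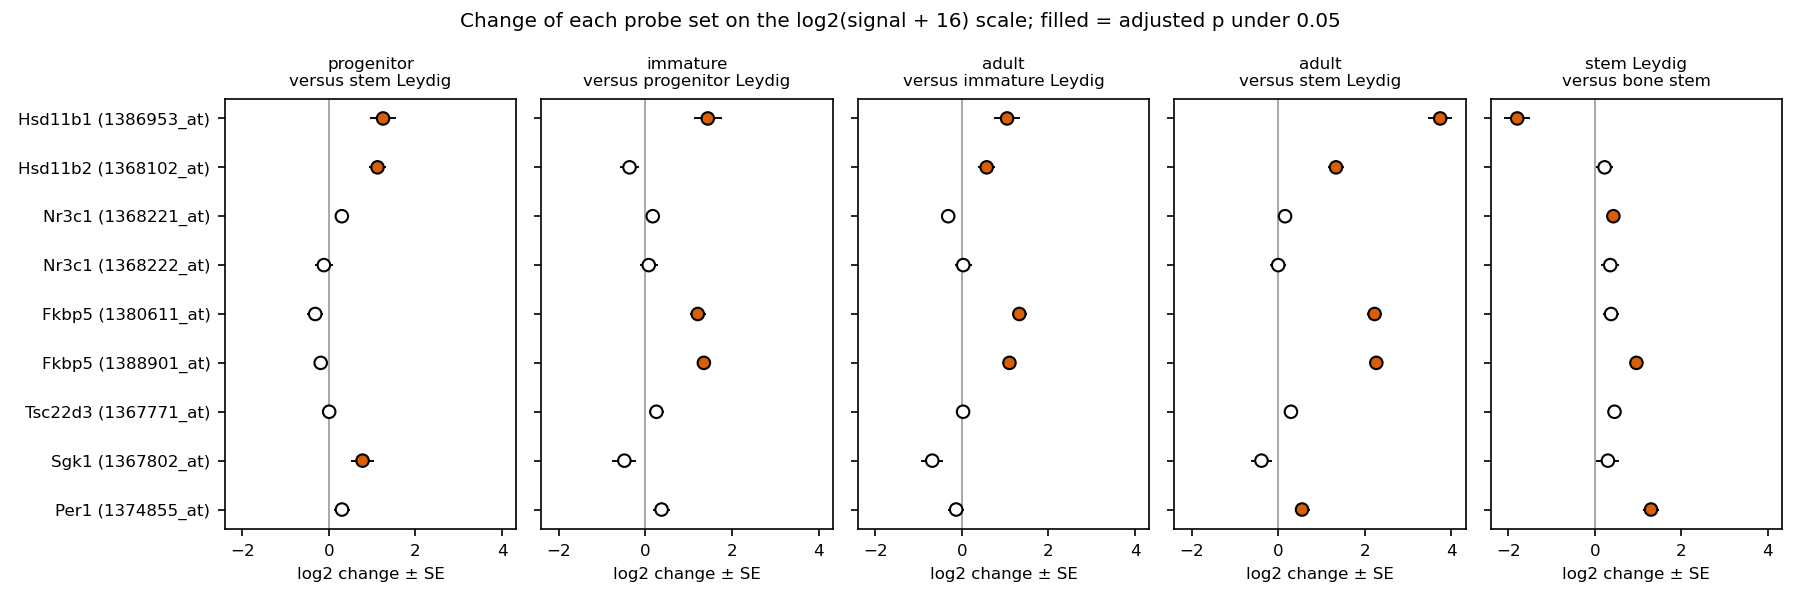
Log2 change ± SE of each of the 9 probe sets in 5 comparisons, first-named group over second, with filled points for an adjusted p under 0.05. Hsd11b1 (3.74) and the Fkbp5 sets (2.26 and 2.22) lead the adult over stem panel, and Hsd11b1 is the only called point below 0, in stem Leydig over bone stem cells (-1.79).

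Other glucocorticoid-inducible genes moved in both directions. Of 27 measured, 13 rose and 5 fell from stem to progenitor cells (66.7% called, against 45.3% of all named genes), with a median log2 change of 0.76 against 0.08. From progenitor to immature cells 1 rose and 1 fell (7.41%, against 1.94%), with a median of 0.08 against 0.00. From immature to adult cells 10 rose and 5 fell (55.6%, against 29.3%), with a median of 0.19 against -0.06. Over the whole span 14 rose and 6 fell (74.1%, against 53.7%), with a median of 0.81 against 0.03. Between stem Leydig and bone stem cells 5 were higher and 5 lower (37.0%, against 23.9%), with a median of -0.01 against 0.00. Many of these genes also answer to other signals and are used by many cell types.

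The largest rises of that list came with the progenitor stage. Sult1a1, a sulfotransferase, averaged 1637 ± 71.1 in progenitor cells and 17.4 ± 3.21 in stem cells (log2 change 5.64 ± 0.18, adjusted p = 2.02e-15). Angptl4, a secreted inhibitor of lipoprotein lipase, averaged 1201 ± 548 in progenitor and 22.8 ± 2.74 in stem cells (4.89 ± 0.25, adjusted p = 3.9e-12). The metallothionein Mt2A (3.90 ± 0.31, adjusted p = 2.4e-09) and the cell cycle inhibitor Cdkn1c (3.48 ± 0.28, adjusted p = 3.82e-09) rose as well. Leydig, leukocyte and erythroid marker sums were also higher on progenitor than on stem arrays, and smooth muscle sums lower. The part of these cell types in the rises was not tested. Cdkn1c then fell again, to 201 ± 153 in immature cells against 682 ± 99.5 in progenitor cells (-1.88 ± 0.29, adjusted p = 0.00164), and to 38.7 ± 5.43 in adult cells (-1.79 ± 0.27 against immature cells, adjusted p = 6.63e-05). Its immature mean was 125 without replicate 4, and without that array and progenitor replicate 3 these changes were -2.19 ± 0.19 (adjusted p = 2.52e-06) and -1.37 ± 0.16 (adjusted p = 6.84e-06).

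Ddit4, a stress-induced inhibitor of growth signalling, rose in the same step as Fkbp5. It averaged 851 ± 273 in immature cells and 264 ± 15.5 in progenitor cells (1.57 ± 0.22, adjusted p = 0.000671), after being lower in progenitor than in stem cells (-0.65 ± 0.21, adjusted p = 0.0181). Lcn2, an iron-carrier-binding protein, rose to 548 ± 224 in adult cells, against 119 ± 63.2 in immature cells (2.08 ± 0.37, adjusted p = 0.000305). Anxa1, a mediator of anti-inflammatory glucocorticoid effects, fell to 268 ± 184 in adult cells, against 1210 ± 906 in immature cells (-2.06 ± 0.37, adjusted p = 0.000389). The immature mean was 766 without replicate 4 and the adult mean 178 without replicate 1, and without immature replicate 4 and progenitor replicate 3 the change was -1.62 ± 0.32 (adjusted p = 0.00143). The transglutaminase Tgm2 fell to 156 ± 43.8 in adult cells, against 499 ± 64.8 in immature cells (-1.61 ± 0.21, adjusted p = 1.08e-05). Leukocyte marker sums were also lower on adult than on immature arrays. Pdk4, which spares glucose from oxidation, had 419 ± 89.4 in adult cells and 4.55 ± 3.72 in stem cells (4.40 ± 0.17, adjusted p = 2.95e-14). Against bone stem cells, stem Leydig cells had less Angptl4 (-3.06 ± 0.25, adjusted p = 1.57e-08) and Mt2A (-3.01 ± 0.31, adjusted p = 3.7e-07), and more Il1r2, a decoy receptor for interleukin-1 (2.80 ± 0.28, adjusted p = 3.58e-07). Leukocyte marker sums were lower on stem Leydig than on bone stem arrays as well.

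**Figure D4:**
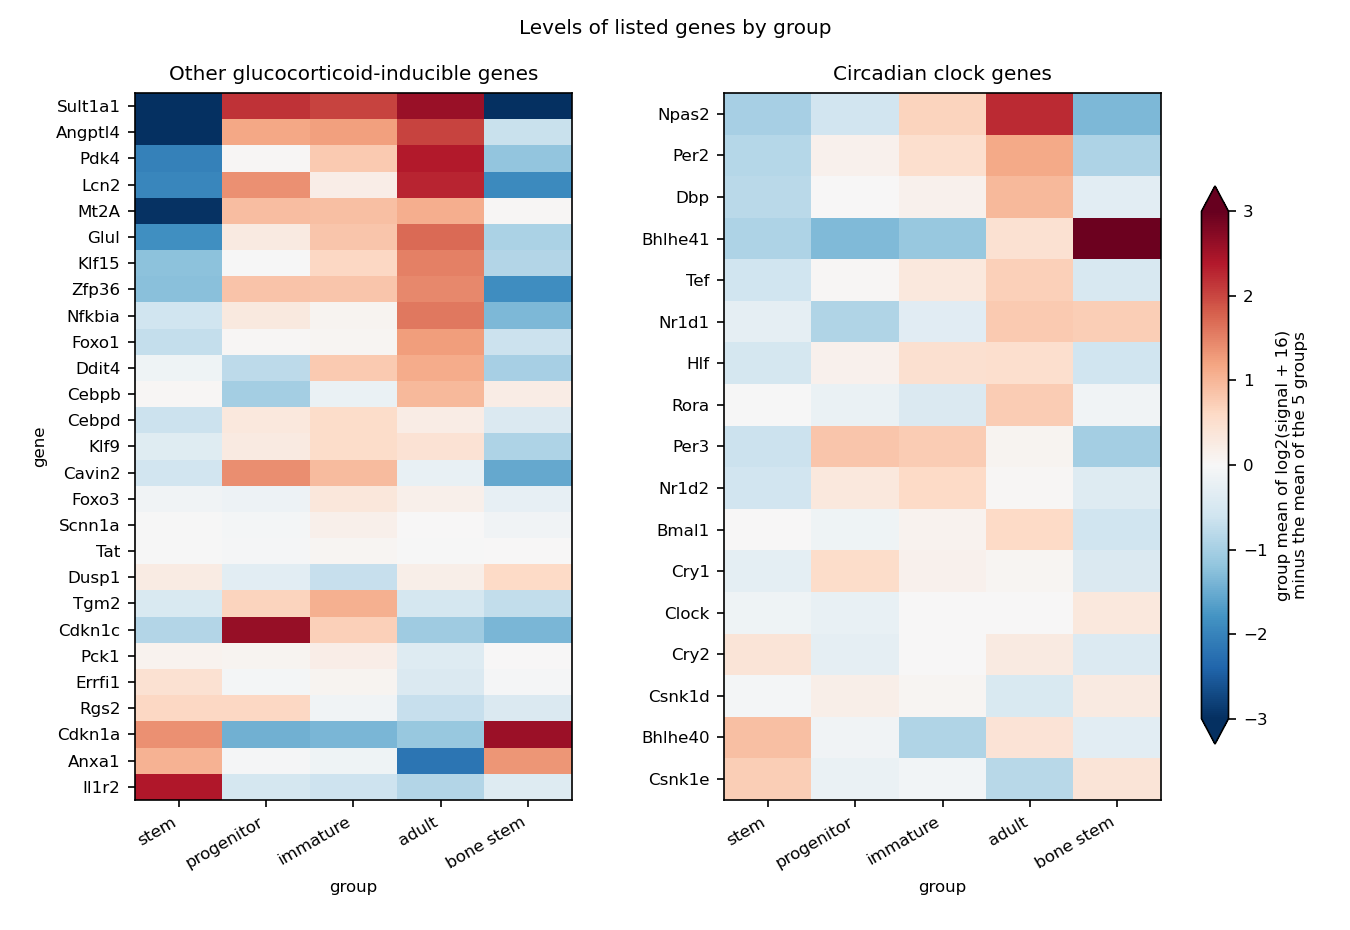
Group mean log2 signal minus the mean of the 5 groups for 27 other glucocorticoid-inducible genes and 17 circadian clock genes, with colour limited at 3 in either direction. Sult1a1 and Angptl4 are low in stem cells and high from the progenitor stage on, Npas2 is highest in adult cells, and Bhlhe41 is highest in bone stem cells.

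Of 17 clock genes measured, 12 rose and 2 fell from stem to adult cells (82.4% called, against 53.7% of all named genes), with a median log2 change of 0.74 against 0.03. By step, 7 rose and 4 fell from stem to progenitor (64.7%, against 45.3%), 1 rose and 0 fell from progenitor to immature (5.88%, against 1.94%), and 8 rose and 3 fell from immature to adult cells (64.7%, against 29.3%). Between stem Leydig and bone stem cells 3 were higher and 3 lower (35.3%, against 23.9%). Npas2, a partner of Bmal1, had 486 ± 46.8 in adult, 155 ± 36.9 in immature, 55.5 ± 10.3 in progenitor and 37.7 ± 11.0 in stem cells. It was called from progenitor to immature (1.24 ± 0.19, adjusted p = 0.00137), from immature to adult (1.58 ± 0.18, adjusted p = 1.71e-06) and from stem to adult cells (3.24 ± 0.17, adjusted p = 1.69e-12). Per2, the relative of Per1, averaged 364 ± 32.5 in adult cells and 79.8 ± 12.9 in stem cells (1.99 ± 0.13, adjusted p = 7.9e-11). The output factor Dbp averaged 346 ± 32.5 in adult and 91.2 ± 28.1 in stem cells (1.78 ± 0.15, adjusted p = 3.97e-09). Csnk1e, a kinase that marks period proteins for turnover, had 23.0 ± 5.33 in adult cells and 98.4 ± 8.37 in stem cells (-1.56 ± 0.13, adjusted p = 3.8e-09). Bhlhe41, a clock repressor, had 42.9 ± 18.4 in stem Leydig cells and 834 ± 146 in bone stem cells (-3.88 ± 0.21, adjusted p = 4.04e-11). The hour of collection is not stated in the sources used here.

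Sgk1 and Per1 are also immediate early genes, which respond within minutes to serum, stress and handling. Of 20 other immediate early genes, 8 rose and 3 fell from stem to progenitor cells (55% called, against 45.3% of all named genes) and 0 were called from progenitor to immature cells (against 1.94%). From immature to adult cells 2 rose and 1 fell (15%, against 29.3%), and from stem to adult cells 7 rose and 2 fell (45%, against 53.7%). In stem Leydig cells 6 were higher and 1 lower than in bone stem cells (35%, against 23.9%). Jun, a part of the AP-1 factor, averaged 2033 ± 359 in progenitor cells and 525 ± 65.8 in stem cells (1.91 ± 0.27, adjusted p = 9.12e-06). Fosl1, its partner, averaged 17.5 ± 9.39 in progenitor and 233 ± 108 in stem cells (-2.78 ± 0.33, adjusted p = 9.86e-07). Fosb averaged 268 ± 93.9 in stem Leydig cells and 54.3 ± 56.1 in bone stem cells, or 21.9 there without replicate 1 (2.21 ± 0.42, adjusted p = 0.000617). The part of cell handling in the Sgk1 and Per1 levels was not tested.

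The genes whose profile was most like each member were sought by Pearson correlation of log2(signal + 16) over the 19 arrays, among 9828 named genes whose highest group mean reached 47.3. The arrays share groups, scaling and dim-signal noise, so the correlations are descriptions. For Fkbp5 they were Gfap (r = 0.977), the clock gene Npas2 (0.968) and Tmem250 (0.967). Gfap averaged 86.7 ± 6.81 in adult, 51.6 ± 16.1 in immature, 18.9 ± 3.92 in progenitor, 16.3 ± 4.00 in stem and 9.28 ± 1.74 in bone stem cells, the same order as the brighter Fkbp5 set except that progenitor and stem cells changed places. For Hsd11b1 the closest were 6430548M08Rikl (0.962), Isg15 (0.957) and Enpp5 (0.954), and for Hsd11b2 Kgd4 (0.960), Tmem184c (0.951) and Apex1 (0.949). Enpp5 averaged 1679 ± 198 in adult, 529 ± 136 in immature, 132 ± 40.2 in progenitor, 13.5 ± 4.52 in stem and 207 ± 62.4 in bone stem cells, the same order as Hsd11b1.

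For Nr3c1 the closest were Ppp1r15b (0.942), Sephs1 (0.932) and Ints6l (0.927), and for Per1 Rgma (0.945), RT1-S3 (0.923) and Eps8 (0.921). Tsc22d3 had Rtf1 (0.891), Kiaa0232 (0.883) and Mapk9 (0.880), and Sgk1 had Mycn (0.860), Nfya (0.853) and Nup160 (0.843), lower values than for the other members. Among the members themselves, r was 0.85 between Nr3c1 and Per1, 0.74 between Hsd11b1 and Fkbp5, and -0.20 between Fkbp5 and Sgk1.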

How the data were processed

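Per the labels' protocols, total RNA of the 19 samples was purified with Trizol and RNeasy columns, and 6 ug went into biotin cRNA labelling. The authors deposited linear intensities, 1 value per probe set on each array. GCOS with the MAS5 algorithm is named in the submitters' processing notes, without versions. The 2% trimmed mean was 100 on every array. Detection calls were not used here, so dim signals have no tested floor, and precision is limited by how many arrays a group has. Of 31099 probe sets, 57 controls were left out. Of the rest, 20826 had 1 gene symbol in the platform annotation, 436 several and 9780 none, and 20758 of the 20826 were found by gene ID in the RefSeq gene table, with 0 symbols updated. Lists used 1 probe set a gene, that of the highest mean, which left 14217 genes.

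Log2(signal + 16) was modelled by limma 3.58.1 under R 4.3.3, as 5 group means with an intensity trend. Tests were two-sided and adjusted by Benjamini-Hochberg over 31042 probe sets, and every adjusted p in the text is from this model unless another is named. The fit was tested on simulated data. Tables were read in Python 3.11.15 (pandas 2.3.3, scipy 1.17.1) and plotted in matplotlib 3.10.9. Groups were taken from the labels. The members and gene lists were chosen with earlier results of these data known. The text names members, and up to 4 called genes per list and comparison with the largest changes. Such a gene may also be given in other comparisons. Gene coordinates are not printed, since no build is named for the arrays. The alternatives were quantile normalization, median centring, adding 1 or 64 to the signal, leaving out the dimmest 40% of probe sets, no trend, array weights, fitting the compared groups alone, a replicate block, a 2-fold minimum, leaving out each array, leaving out progenitor replicate 3 with immature replicate 4, and averaging the closest pairs of arrays.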

Additional observations from a re-analysis of the deposited data

Results flagged for a closer look

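In groups of 4 or 5 arrays, 27 sets of member signals were searched for a highest or lowest array whose gap to its nearest neighbour exceeded Dixon's 95% critical value, which chance does in about 1 of 20 groups. It did so in 3. Hsd11b1 was 5016 on adult replicate 3, against 3338 to 3571 on the other adult arrays. Fkbp5 (1388901_at) was 185 on immature replicate 4, against 289 to 314 on the other immature arrays. Sgk1 was 366.1 on adult replicate 2, against 545 to 584 on the other adult arrays.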

How the results depend on the processing

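Of 45 results (9 probe sets in 5 comparisons), 28 kept their call under every alternative run, and 11 of the 19 that were called never lost it. Over 850 values, 34 lost and 21 gained a call, 0 called values changed sign, and 26 uncalled ones did. Apart from leaving out single arrays, counts of called members moved by over 1.5 times in these cases. From stem to progenitor cells the count was 5 after quantile normalization, against 3, and from progenitor to immature cells 1 with only these groups fitted, against 3. Between stem Leydig and bone stem cells it was 8 with array weights and 2 with a 2-fold minimum, against 4. Counts over all probe sets with a 2-fold minimum were 4379 (main 11385), 189 (404), 1796 (6547), 5473 (12978) and 1902 (5749) for progenitor over stem, immature over progenitor, adult over immature, adult over stem and stem Leydig over bone stem cells. The 404 also became 226 with 1 added to the signal, 1456 with weights, 17 with only these groups fitted, 1194 without progenitor replicate 3 and immature replicate 4, and 157 with closest pairs averaged. The 5749 became 10996 with weights and 3674 with closest pairs averaged.

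Leaving out 1 array gave 2 to 4 members called and 9758 to 11091 probe sets for progenitor over stem, 2 to 3 and 147 to 1304 for immature over progenitor, 2 to 4 (2 without adult replicate 3) and 5152 to 6652 for adult over immature, 4 to 5 and 12059 to 12746 for adult over stem, and 3 to 5 and 3746 to 6320 for stem Leydig over bone stem cells. The 1304 came without immature replicate 4 and the 147 without progenitor replicate 2, and the count was 229 without progenitor replicate 1 and 204, 168 and 202 without immature replicates 1, 2 and 3. The cause of these changes was not tested.

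Same-numbered arrays did not deviate together (33 pairs, correlations -0.27 to 0.26, with 5 over 0.1), so the numbers were not taken as pairs. With the replicate number as a block, 3, 3, 4, 4 and 4 members were called in the 5 comparisons, and Per1 in adult over stem cells was the member call lost (0.50, adjusted p = 0.0502).

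Median centring shifted the overall median log2 change by -0.23 for progenitor over stem and by 0.18 for adult over immature cells. Averaging the closest pairs also lost the calls of Hsd11b1 for immature over progenitor (adjusted p = 0.107), Hsd11b2 for adult over immature (0.126) and Nr3c1 for stem Leydig over bone stem cells (0.126). For the gene lists, checked after seeing the data under quantile normalization, median centring and without both arrays, immature over progenitor counts went to 4 of the glucocorticoid-inducible genes (main 2) under quantile normalization and without both arrays, to 1 of the corticosteroid list (0) under the same, and without both arrays to 2 of the chaperones (0), 2 clock genes (1) and 1 immediate early gene (0). Chaperone counts also went to 3 for adult over immature (5) under each, to 11 for adult over stem (7) without both arrays and to 5 for stem Leydig over bone stem (3) by quantile normalization. Immediate early counts went to 6 for adult over immature (3) without both arrays and to 7 for progenitor over stem (11) by median centring. Of 213 values of genes named from the lists, 12 lost their call (of Med1, Crebbp, Stub1, Ncoa1, Nr4a1 and Stip1) and 0 changed direction.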
